A study of Homo sapiens with 18 samples.

Results

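The sestrins SESN1, SESN2 and SESN3, the stress gene DDIT4 and the inhibitors TSC1, TSC2, EIF4EBP1 and DEPTOR are 8 genes whose proteins hold back mTORC1, the growth-promoting kinase complex, or, in the case of EIF4EBP1, one of the processes it drives. They were chosen by gene name among 59251 genes counted in 18 RNA-seq libraries of HAP1, a near-haploid human line derived from chronic myeloid leukaemia cells, and all 8 passed the low-count filter with 21615 genes in all. The study concerns loss of SARS2, the enzyme that loads serine onto mitochondrial transfer RNA, set against cells that keep it. In the deleted line, SARS2 was deleted and a SARS2-1xFLAG transgene was added; it was measured with 15 ng/mL doxycycline and at 3, 6 and 9 days without it. The unmodified parental line was measured without doxycycline, for a time the labels do not give, and with 15 ng/mL. Every group held 3 libraries, all cells were grown in IMDM, and the labels do not say whether the deleted line is 1 clone or whether replicates came from separate cultures. The p-values therefore measure only the spread between these libraries, which may be technical.

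mTORC1 drives protein synthesis when amino acids, energy and growth signals are sufficient, and these genes act at several steps around it. When leucine is scarce, sestrins bind and inhibit GATOR2, which otherwise opposes GATOR1, the complex that switches off the Rag GTPases. The TSC1 and TSC2 proteins form a complex that switches off RHEB, the direct activator of mTORC1. DDIT4 (REDD1) acts through the TSC complex under hypoxia and other stress, DEPTOR binds the mTOR kinase, and EIF4EBP1 (4E-BP1) blocks the cap-binding factor eIF4E until mTORC1 phosphorylates it. The stress factor ATF4, which is switched on by amino acid shortage and mitochondrial stress, is known to induce SESN2 and DDIT4, and FOXO factors, active when AKT is not, are known to induce SESN3.

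Library totals ran from 66850705 to 111123481 counts. SARS2 RNA averaged 24.2 CPM (read counts scaled to library size, with TMM factors) in the deleted line with doxycycline, 31.6 on day 3, 24.7 on day 6 and 41.8 on day 9. In parental cells SARS2 averaged 39.9 CPM without doxycycline and 44.3 CPM with it. SARS2 gave a log2 fold change of 0.03 on day 6 (edgeR adjusted p = 0.86) and 0.79 on day 9 (adjusted p = 2.7e-06). Between the lines, both given doxycycline, it differed by −0.87 (deleted over parental, edgeR adjusted p = 3.5e-06). Within the deleted line its counts were thus not lower on the labelled days without doxycycline than with it, reads of the transgene cannot be told apart from those of the gene, and the days below are those of the labels. Of 10 haematopoietic markers, GATA1, HBG1, HBG2, PTPRC and SPI1 were under 0.1 CPM in every group, and 8 mesenchymal markers summed to 586 to 1080 CPM per library. In bulk RNA, fewer cells that express a gene and less RNA per cell cannot be told apart.

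SESN2 and DDIT4 were higher at each labelled day than with doxycycline in the deleted line, and parental cells without doxycycline also had more of both. SESN3 and DEPTOR were lower on day 3 and day 9, and both were higher in the parental line without doxycycline. They were also higher on day 6, in calls that depended on single libraries. TSC2 rose on day 9, and SESN1 and EIF4EBP1 were not called against doxycycline in either line, with exceptions by library given below. The test was edgeR's quasi-likelihood test, adjusted by Benjamini-Hochberg over all genes tested, with 0.05 as the limit for a call. On day 3, 2 of the 8 genes were called higher and 2 lower, where 13.4% of all genes tested were called, 6.50% higher and 6.87% lower. On day 6, 5 were higher and 0 lower (28.1% of all genes called, 14.0% in each direction), and on day 9, 3 were higher and 3 lower (46.4% of all genes called, 22.6% higher and 23.8% lower). The day 6 count of 5 was 2 without doxycycline replicate 3 or day 6 replicate 2. In parental cells without doxycycline, 5 were higher and 0 lower (39.4% of all genes called, 21.0% higher and 18.4% lower). Where 0 of the 8 were lower, 0 were lower at an unadjusted p under 0.05 and 0 by DESeq2. The median log2 fold change of the 8 genes was 0.11 on day 3, 0.32 on day 6, 0.22 on day 9 and 0.47 in the parental line, against −0.002, 0.01, −0.01 and 0.028 over all genes tested. The 3 days share their doxycycline libraries, so their calls are not independent of each other.

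**Figure D1:**
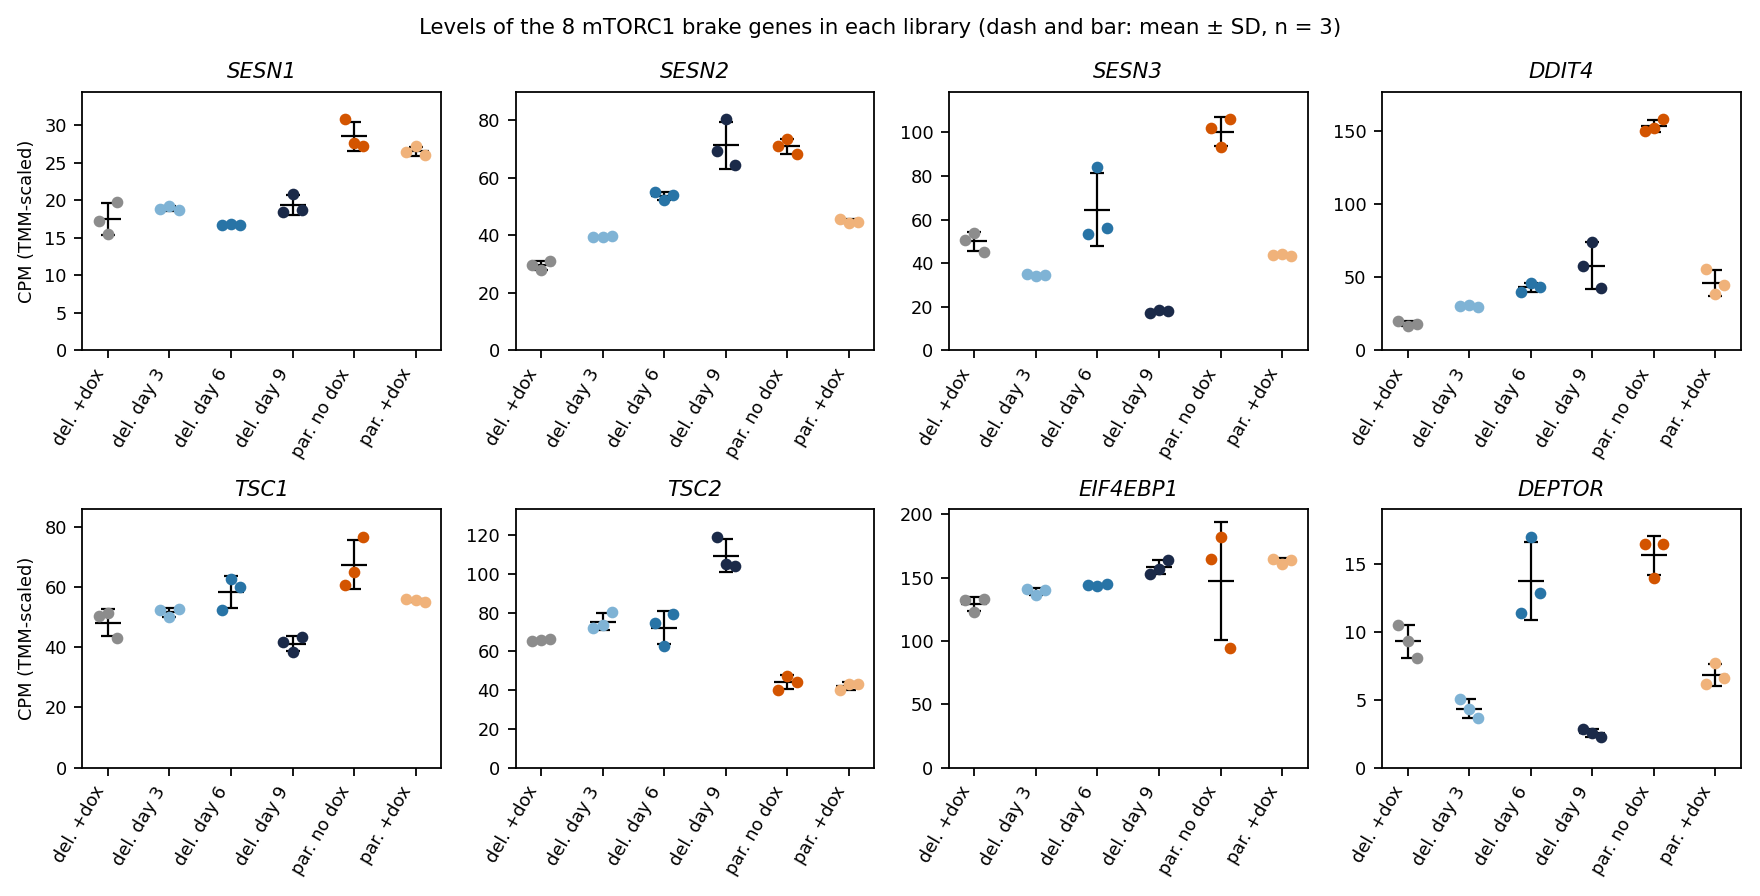
CPM of each gene (vertical axes, each from 0) in the 18 libraries by group, with dots for libraries and bars for mean ± SD. SESN2 climbs from left to right over the 4 deleted-line groups, while SESN3 and DEPTOR are lowest on day 9, at 17.1 to 18.4 CPM and 2.25 to 2.85 CPM.

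Start regions of 300 bases, from 250 before to 50 after the annotated gene start, were available from RefSeq (GRCh38.p14) for 6 of the 8 genes, with EIF4EBP1 and DEPTOR not included. They are shown for the pair that rose at every label (SESN2 and DDIT4), for SESN3, which went lower on day 9, and for TSC2. Both strands were searched for TGATGNAA (the C/EBP-ATF response element bound by ATF4), ACGTG and GCGTG (hypoxia response element cores), TGTTTAC (a FOXO site), TCACGTGA (the core of the CLEAR element of lysosomal genes) and CACGTG (the E-box), a choice made after the values were seen. Capitals mark matches.
SESN2 (chr1:28259268-28259567, plus strand): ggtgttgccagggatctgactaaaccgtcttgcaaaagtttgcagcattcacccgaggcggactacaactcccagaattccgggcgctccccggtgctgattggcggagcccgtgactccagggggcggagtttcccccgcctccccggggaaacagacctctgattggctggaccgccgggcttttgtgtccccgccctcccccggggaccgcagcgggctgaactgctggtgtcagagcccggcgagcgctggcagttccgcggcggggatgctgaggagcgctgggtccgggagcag
DDIT4 (chr10:72273674-72273973, plus strand): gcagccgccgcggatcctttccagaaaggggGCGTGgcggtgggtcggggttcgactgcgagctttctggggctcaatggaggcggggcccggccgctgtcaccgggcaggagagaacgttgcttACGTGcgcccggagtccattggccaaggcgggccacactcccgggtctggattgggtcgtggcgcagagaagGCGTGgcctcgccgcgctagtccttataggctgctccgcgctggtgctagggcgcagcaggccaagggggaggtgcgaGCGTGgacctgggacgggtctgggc
SESN3 (chr11:95232426-95232725, minus strand): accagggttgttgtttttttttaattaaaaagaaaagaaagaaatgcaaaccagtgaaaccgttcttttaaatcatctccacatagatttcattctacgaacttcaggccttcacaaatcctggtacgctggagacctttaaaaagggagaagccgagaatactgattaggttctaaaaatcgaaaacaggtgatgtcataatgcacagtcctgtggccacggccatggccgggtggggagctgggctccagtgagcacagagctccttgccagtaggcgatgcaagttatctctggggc
TSC2 (chr16:2047735-2048034, plus strand): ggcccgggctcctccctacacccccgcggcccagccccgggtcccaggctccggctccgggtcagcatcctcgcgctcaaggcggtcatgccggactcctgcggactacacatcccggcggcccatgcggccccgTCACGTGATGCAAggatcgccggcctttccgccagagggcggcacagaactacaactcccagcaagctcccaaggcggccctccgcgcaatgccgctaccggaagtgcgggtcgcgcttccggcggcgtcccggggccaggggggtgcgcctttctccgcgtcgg
DDIT4 held GCGTG at 219 and 53 bases before and 25 bases after its start and ACGTG at 125 bases before it. TSC2 held TCACGTGA at 115 bases before the start, which contains the E-box and ACGTG on both strands, and TGATGCAA at 110 bases before, overlapping it by its first bases. No searched motif lay in these windows of SESN2, SESN3 and TSC1, and SESN1 held a GCGTG at 82 bases before 1 of its starts. Of all 35116 promoters of this length, 3.62% held TGATGNAA, 21.4% ACGTG, 36.5% GCGTG, 3.42% TGTTTAC, 0.98% TCACGTGA and 7.26% CACGTG. A match describes letters and not binding.

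SESN2, a leucine-binding sestrin, lies on chromosome 1 (28259518 to 28282491, plus strand). Its libraries held 29.6, 27.8 and 30.9 CPM with doxycycline in the deleted line, 39.2, 39.4 and 39.6 on day 3, 54.8, 52.2 and 53.9 on day 6 and 69.3, 80.2 and 64.2 on day 9. No 2 of these 4 groups overlapped. The log2 fold change against doxycycline was 0.42 ± 0.07 (SE) on day 3 (edgeR adjusted p = 0.0012), 0.87 ± 0.07 on day 6 (adjusted p = 2.6e-07) and 1.28 ± 0.07 on day 9 (adjusted p = 6.1e-10), the last a 2.42-fold difference. Each step was called as well, with 0.45 from day 3 to day 6 (edgeR adjusted p = 6.1e-05) and 0.41 from day 6 to day 9 (adjusted p = 5.8e-05). Among parental libraries SESN2 stood at 70.8, 73.3 and 68.3 CPM without doxycycline and 45.5, 44.2 and 44.5 CPM with it, with no overlap (0.66 ± 0.07, edgeR adjusted p = 1.6e-06). Its mean of 71.2 CPM on day 9 was next to the 70.8 CPM of the parental line without doxycycline, and those ranges overlapped.

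DDIT4 (chromosome 10, 72273924 to 72276036, plus strand) showed the largest called rises among the 8 genes in the comparisons with doxycycline. It stood at 19.9, 16.4 and 17.6 CPM with doxycycline in the deleted line, 30.1, 31.1 and 29.8 on day 3, 40.1, 46.0 and 42.9 on day 6 and 57.8, 73.8 and 42.2 on day 9. Day 6 and day 9 overlapped and the other neighbouring groups did not. Its log2 fold change was 0.75 ± 0.15 on day 3 (edgeR adjusted p = 0.0032), 1.26 ± 0.15 on day 6 (adjusted p = 1.1e-05) and 1.69 ± 0.15 on day 9 (adjusted p = 7.6e-08). The step from day 6 to day 9 (0.43, edgeR adjusted p = 0.016) no longer passed when day 9 replicate 2 (0.22) or day 6 replicate 1 (0.38) was left out, with library size as the only scaling (0.32), with the compared groups only (0.42) or with the gene-length trend removed (0.22). Among parental libraries the values were 150, 152 and 158 CPM without doxycycline and 55.7, 38.1 and 44.4 CPM with it, a 3.33-fold difference (1.73 ± 0.15, edgeR adjusted p = 2.2e-07). DDIT4 was thus higher in the parental line without doxycycline than in any other group.

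SESN3 (chromosome 11, 95165513 to 95232475, minus strand) did not follow SESN2. It stood at 50.8, 53.9 and 45.3 CPM with doxycycline in the deleted line, 35.0, 34.1 and 34.3 on day 3, 53.4, 84.1 and 56.3 on day 6 and 17.1, 18.4 and 18 on day 9. Day 3 and day 9 lay below all doxycycline libraries, and day 6 overlapped them. SESN3 fell on day 3 (−0.54 ± 0.12, edgeR adjusted p = 0.0066) and on day 9 (−1.49 ± 0.12, adjusted p = 2.7e-08). The rise on day 6 (0.37 ± 0.12, edgeR adjusted p = 0.024) rested on day 6 replicate 2: it was 0.12 without that library, and the call was also lost without doxycycline replicate 1 (0.38) or 3 (0.30), with the compared groups only in the fit (0.37) and with the length trend removed (0.25). Within the parental line SESN3 stood at 102, 93.3 and 106 CPM without doxycycline and 43.9, 44.2 and 43.3 CPM with it (1.20 ± 0.12, edgeR adjusted p = 6.9e-07), with no overlap. LOC100129203 overlaps SESN3 on the opposite strand by 2290 bases of genomic span.

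SESN1 (chromosome 6, 108984309 to 109094846, minus strand) was not called at any day. It held 17.3, 15.5 and 19.8 CPM with doxycycline in the deleted line, 18.8, 19.3 and 18.7 on day 3, 16.7, 16.9 and 16.7 on day 6 and 18.5, 20.9 and 18.7 on day 9. All 3 labelled days overlapped the doxycycline libraries. The log2 fold changes were 0.11, −0.07 and 0.14 on days 3, 6 and 9 (edgeR adjusted p = 0.42, 0.61 and 0.17), but day 9 passed without doxycycline replicate 3 (0.24) and with the length trend removed (0.31). Within the parental line SESN1 stood at 30.8, 27.6 and 27.2 CPM without doxycycline and 26.5, 27.2 and 26.0 CPM with it (0.10 ± 0.08, edgeR adjusted p = 0.35). ARMC2 overlaps SESN1 on the opposite strand over 68732 bases of genomic span, introns included. It averaged 443.8 counts per library, against 1943.8 for SESN1. The sources used here do not state whether strand was used in counting. If it was not, any ARMC2 reads in shared exon sequence cannot be told apart from those of SESN1.

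Per kilobase of exon, SESN2 was the main sestrin RNA in every library, at 56.8% to 83.3% of the 3 together. Its share averaged 57.9 ± 1.02% with doxycycline in the deleted line, 67.9 ± 0.231% on day 3, 68.9 ± 3.9% on day 6 and 82.5 ± 1.03% on day 9 (SD, n = 3 each). SESN3 made up 22.6 ± 2.7% with doxycycline and 4.75 ± 0.423% on day 9. The share of SESN2 differed from doxycycline by 10.0, 11 and 24.6 percentage points on days 3, 6 and 9, with a 2-sided exact permutation p of 0.1 each, the smallest that 3 against 3 libraries can give (0.13 adjusted over 4 comparisons). For the parental line, the share was 64.3 ± 1.81% without doxycycline and 64.1 ± 0.599% with it (exact permutation p = 0.9). The summed level of the 3 RNAs there was 31.8 ± 0.529 CPM per kilobase without doxycycline and 20.2 ± 0.201 with it. SESN2 was divided by its length of 3462 bases on chromosome 1, because its deposited length of 6924 bases counts a copy on another scaffold as well.

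**Figure D2:**
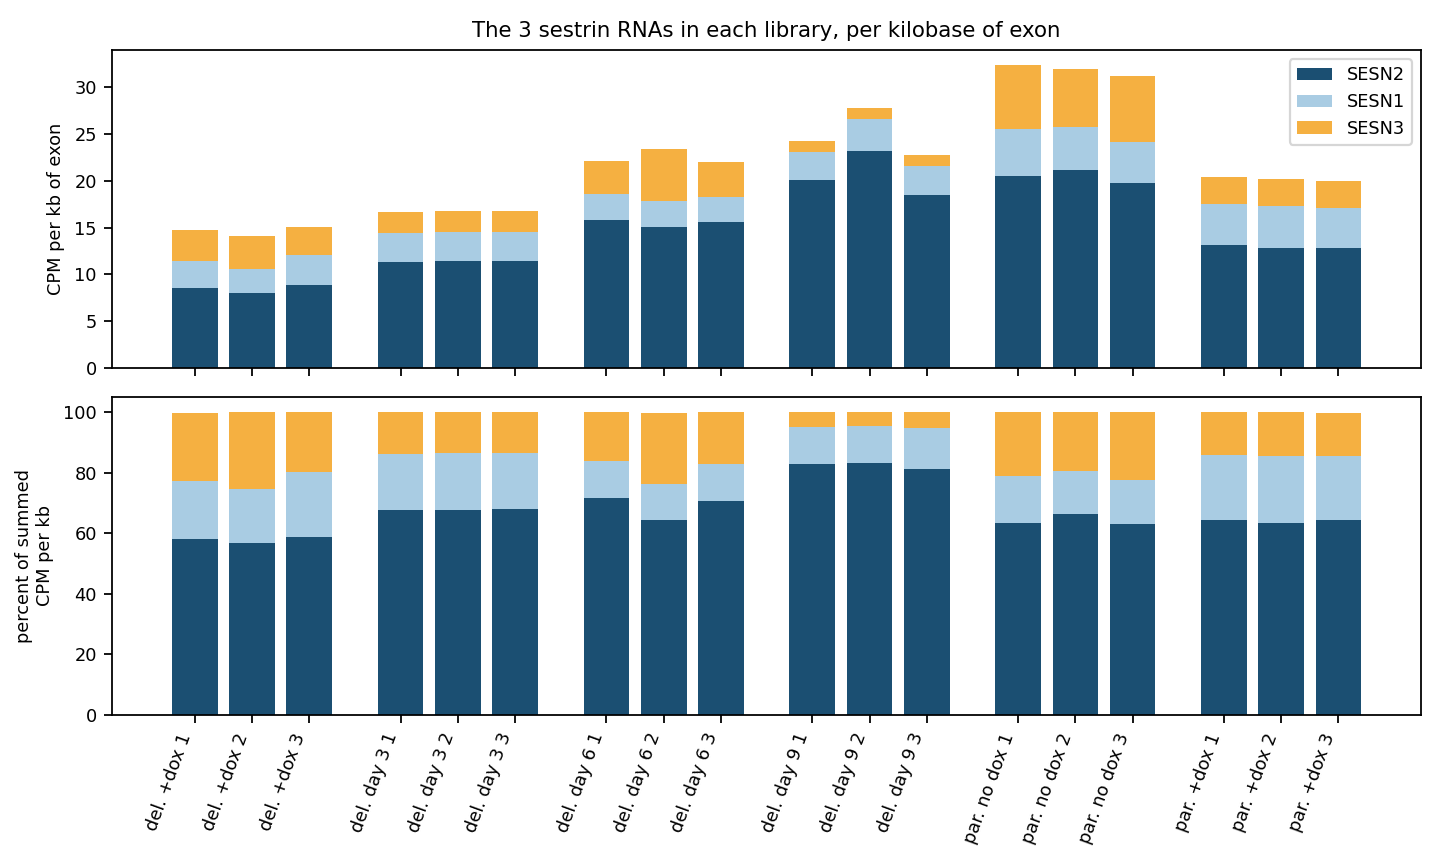
Summed level of the 3 sestrin RNAs in CPM per kilobase of exon (top) and their shares in percent (bottom), 1 bar per library. SESN2 makes up 81.3% to 83.3% in the day 9 libraries, and SESN3 4.37% to 5.21%.

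TSC2, the part of the TSC complex that acts on RHEB (chromosome 16, 2047985 to 2089491, plus strand), stood at 65.5, 66 and 66.2 CPM with doxycycline in the deleted line, 72.1, 73.5 and 80.3 on day 3, 74.6, 62.6 and 79.3 on day 6 and 119, 105 and 104 on day 9. The day 9 libraries lay above all others. TSC2 rose on day 9 (0.73 ± 0.08, edgeR adjusted p = 1.3e-06), with 0.19 on day 3 (adjusted p = 0.13) and 0.13 on day 6 (adjusted p = 0.26). The day 3 value passed with the compared groups only (0.20). In parental cells it stood at 40.2, 47.5 and 44.4 CPM without doxycycline and 40.0, 43.3 and 43.1 CPM with it (0.06 ± 0.08, edgeR adjusted p = 0.58). TSC2 overlaps PKD1 on the opposite strand by 784 bases of genomic span, and the strand caveat given for SESN1 holds here as well. PKD1 averaged 10026.4 counts per library and TSC2 6180.9.

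TSC1, which stabilises TSC2 (chromosome 9, 132891349 to 132945378, minus strand), had calls at 2 days that depended on single libraries. It stood at 50.4, 51.3 and 42.9 CPM with doxycycline in the deleted line, 52.2, 49.9 and 52.8 on day 3, 52.5, 62.8 and 59.9 on day 6 and 41.7, 38.4 and 43.3 on day 9. Day 6 lay above the doxycycline libraries and day 9 overlapped them. TSC1 gave 0.10 on day 3 (edgeR adjusted p = 0.51), 0.28 ± 0.09 on day 6 (adjusted p = 0.025) and −0.23 ± 0.09 on day 9 (adjusted p = 0.042). Day 6 no longer passed when day 6 replicate 2 (0.21) or 3 (0.25) or doxycycline replicate 3 (0.20) was left out or the length trend was removed (0.17). The day 9 call was lost in 9 of 18 refits that left out 1 library: day 9 replicate 1 (−0.24) or 2 (−0.18), doxycycline replicate 1 (−0.20) or 2 (−0.18), day 3 replicate 2 or 3, or any parental library with doxycycline (−0.23 each). It was also lost with the compared groups only (−0.23) and with the length trend removed (−0.17). In the unmodified line TSC1 stood at 60.8, 64.9 and 76.6 CPM without doxycycline and 55.9, 55.7 and 54.9 CPM with it (0.28 ± 0.09, edgeR adjusted p = 0.016), a call lost without parental no-doxycycline replicate 3 (0.18) or doxycycline replicate 3 (0.27) and with the length trend removed (0.14).

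DEPTOR (chromosome 8, 119873722 to 120050918, plus strand) was the least abundant of the 8 in CPM and showed the largest falls. It stood at 10.5, 9.35 and 8.1 CPM with doxycycline in the deleted line, 5.09, 4.36 and 3.63 on day 3, 11.4, 17.0 and 12.9 on day 6 and 2.85, 2.59 and 2.25 on day 9. None of these 4 groups overlapped. DEPTOR fell on day 3 (−1.10 ± 0.16, edgeR adjusted p = 0.00036) and on day 9 (−1.86 ± 0.16, adjusted p = 5.6e-08), and between them it rose from day 3 to day 6 by 1.66 ± 0.16 (adjusted p = 2.7e-07). The difference of day 6 from doxycycline (0.56 ± 0.15, edgeR adjusted p = 0.0096) no longer passed when day 6 replicate 2 (0.37) or doxycycline replicate 3 (0.47) was left out. In the unmodified line DEPTOR stood at 16.5, 14.0 and 16.5 CPM without doxycycline and 6.19, 7.72 and 6.61 CPM with it (1.20 ± 0.15, edgeR adjusted p = 1e-05).

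EIF4EBP1 (chromosome 8, 38030534 to 38060365, plus strand) was the most abundant per kilobase in every group, with means of 156 to 197 CPM per kilobase, where the other 7 genes ranged from 0.999 (DEPTOR on day 9) to 87.9 (DDIT4 in the parental line without doxycycline). Its libraries held 132, 123 and 133 CPM with doxycycline in the deleted line, 141, 136 and 140.0 on day 3, 144, 143 and 145 on day 6 and 153, 157 and 164 on day 9. Each labelled day lay above the doxycycline libraries, with log2 fold changes of 0.10, 0.16 and 0.29 ± 0.14 that did not pass (edgeR adjusted p = 0.69, 0.44 and 0.099). Across parental libraries it stood at 165, 182 and 94.6 CPM without doxycycline and 165, 161 and 164 CPM with it, and replicate 3 without doxycycline was apart from the rest. Without that library the fitted SE for day 9 was 0.05 instead of 0.14, day 6 (0.16, edgeR adjusted p = 0.026) and day 9 (0.29, adjusted p = 0.00011) passed, and the parental difference turned from −0.15 to 0.09. Both days also passed with the length trend removed (0.36 and 0.33). The same held with the compared groups only (0.15, just under the limit, and 0.29), and day 9 passed with no low-count filter (0.30).

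**Figure D3:**
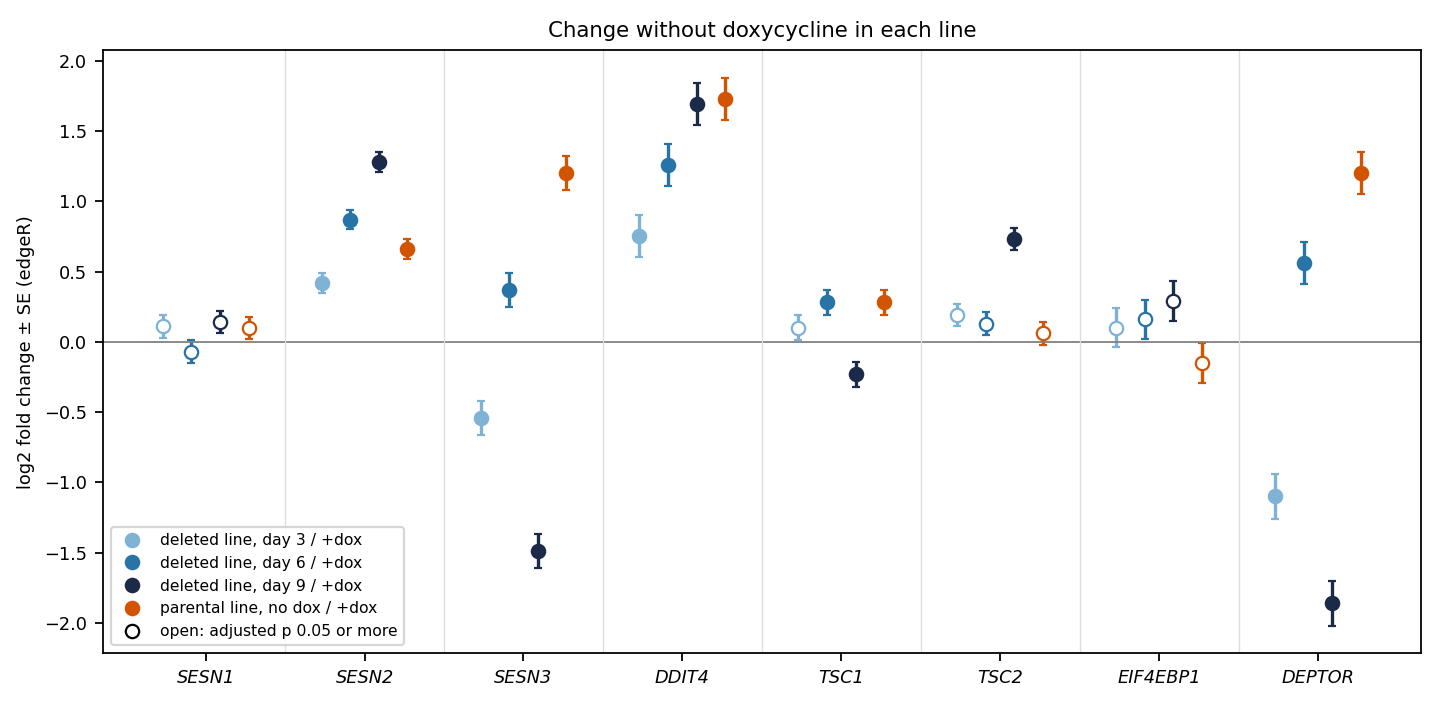
Log2 fold change ± SE of each gene (edgeR) for days 3, 6 and 9 against doxycycline in the deleted line and for the parental line without against with doxycycline. Open circles have an adjusted p of 0.05 or more; SESN3 and DEPTOR lie below 0 on day 9 (−1.49 and −1.86) and above 0 in the parental line (1.20 and 1.20).

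With doxycycline in both lines, the deleted line had 3 of the 8 genes lower and 2 higher than the parental line, where 19.3% of all genes tested were called, 9.97% lower and 9.32% higher. DDIT4 averaged 18 ± 1.78 CPM in the deleted line and 46.1 ± 8.89 CPM in the parental line (−1.36 ± 0.15, edgeR adjusted p = 3.3e-06). SESN2 averaged 29.4 ± 1.53 and SESN1 17.5 ± 2.12 CPM in the deleted line, against 44.7 ± 0.672 and 26.6 ± 0.603 CPM in the parental line (−0.60 ± 0.07 and −0.60 ± 0.08, edgeR adjusted p = 7.8e-06 and 5.4e-05). TSC2 was higher, at 65.9 ± 0.387 CPM in the deleted line and 42.1 ± 1.85 CPM in the parental line (0.64 ± 0.08, edgeR adjusted p = 2.5e-05). DEPTOR (0.45 ± 0.15, edgeR adjusted p = 0.047) lost its call in 8 of 18 refits without 1 library, lowest without deleted-line doxycycline replicate 1 (0.35) and parental doxycycline replicate 1 (0.38), the others being parental doxycycline replicate 3 (0.42) and, at 0.45 each, parental no-doxycycline replicate 1, deleted-line doxycycline replicate 2, day 3 replicate 2, day 6 replicate 3 and day 9 replicate 1. EIF4EBP1 (−0.33) passed without parental no-doxycycline replicate 3 (edgeR adjusted p = 9.6e-05), and SESN3 (0.19) passed without day 6 replicate 2 (adjusted p = 0.049). With the length trend removed, DEPTOR lost its call (0.40), while EIF4EBP1 (−0.37) and TSC1 (−0.24, against −0.20 as tested) passed. DEPTOR also lost it with DESeq2's size factors (0.44), and EIF4EBP1 passed with no low-count filter (−0.34).

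The change without doxycycline was then compared between the lines themselves, as the deleted line's log2 fold change minus the parental line's. The 3 tests share the parental libraries and the deleted-line doxycycline libraries, and the labels do not match the parental cells to a day. On day 3, SESN3 (−1.74 ± 0.17, edgeR adjusted p = 6.4e-07), DDIT4 (−0.98 ± 0.21, adjusted p = 0.001) and DEPTOR (−2.29 ± 0.22, adjusted p = 6.2e-07) differed, 3 of the 8 where 39.5% of all genes did, 20.9% lower and 18.6% higher. SESN2 (−0.24, edgeR adjusted p = 0.064) passed as well without parental no-doxycycline replicate 3 (−0.27) or day 9 replicate 2 or 3 (−0.24 each), with the compared groups only (−0.24) and with the length trend removed (−0.26). On day 6 SESN3 (−0.83 ± 0.17, edgeR adjusted p = 0.0039) differed, 1 of the 8 where 12.6% of all genes did, 7.14% lower and 5.49% higher. DEPTOR (−0.63) also differed without day 6 replicate 2 (−0.81), deleted-line doxycycline replicate 3 (−0.72), parental no-doxycycline replicate 2 (−0.70) or day 9 replicate 3 (−0.63), and without the last DDIT4 (−0.48) as well, which makes 2 or 3 of the 8. Over all genes, 1625 to 4002 differed in refits without 1 library, against 2729 in the main fit. On day 9, 5 of the 8 differed where 51.7% of all genes did, 27.3% lower and 24.4% higher: SESN3 (−2.69), DEPTOR (−3.06) and TSC1 (−0.51) were lower and SESN2 (0.61) and TSC2 (0.66) higher. EIF4EBP1 (0.43, edgeR adjusted p = 0.073) passed without parental no-doxycycline replicate 1 (0.54), 2 (0.63) or 3 (0.20) and with no low-count filter (0.45). With the length trend removed, EIF4EBP1 (0.45, edgeR adjusted p = 0.035) and SESN1 (0.33, adjusted p = 0.028, against 0.04 as tested) passed as well on day 9. DDIT4 gave −0.05 ± 0.21 on day 9 (edgeR adjusted p = 0.87), which does not show that the lines changed alike.

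From day 3 to day 6, 4 of the 8 genes were higher on day 6 and 0 lower, where 42.7% of all genes were called, 21.9% higher and 20.8% lower: DEPTOR (1.66), SESN3 (0.91), DDIT4 (0.50) and SESN2 (0.45). TSC1 (0.18) passed without day 6 replicate 1 (0.23) and with library size as the only scaling (0.24). The count of 0 lower depended on the setting: SESN1 (−0.18, edgeR adjusted p = 0.1) was called lower with the length trend removed (−0.32, adjusted p = 0.0055) and with the compared groups only (−0.19, adjusted p = 0.026). From day 6 to day 9, 7 of the 8 were called where 58.8% of all genes were, 28.6% higher and 30.2% lower. DEPTOR (−2.42 ± 0.16, edgeR adjusted p = 7.9e-10), SESN3 (−1.86 ± 0.12, adjusted p = 6.2e-10) and TSC1 (−0.50 ± 0.09, adjusted p = 6.9e-05) were lower on day 9. TSC2 (0.60 ± 0.08, edgeR adjusted p = 5.2e-06), SESN2, DDIT4 and SESN1 (0.21, adjusted p = 0.039) were higher on day 9. The SESN1 call was lost with library size as the only scaling (0.09), with the replicate number as a block (0.21), with no low-count filter (0.22), with the compared groups only (0.20), and without day 9 replicate 2 (0.15), any day 6 replicate (0.21 to 0.23), day 3 replicate 2 or 3 or any parental doxycycline library (0.21 each). With the length trend removed it was larger (0.50, edgeR adjusted p = 6.8e-05). EIF4EBP1 (0.13) passed without parental no-doxycycline replicate 3 (edgeR adjusted p = 0.032).

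The 8 genes differ in genomic span, and the fits were repeated with the trend of the counts over span and exon length removed. DEPTOR spans 177.2 kb and SESN1 110.5 kb, SESN3 67.0 kb, TSC1 54.0 kb, TSC2 41.5 kb, EIF4EBP1 29.8 kb, SESN2 23.0 kb and DDIT4 2.1 kb. With that trend removed from each library, DEPTOR still fell on day 9 (−1.57, edgeR adjusted p = 4.5e-07) and so did SESN3 (−1.38, adjusted p = 1.7e-08), while SESN2 (1.21) and DDIT4 (1.63) still rose. NEAT1, a nuclear RNA named after its values were seen, was also low on day 9 and high on day 6 and in parental cells without doxycycline: it gave −0.45 on day 3 (edgeR adjusted p = 0.11), 1.25 on day 6 (adjusted p = 6.6e-05), −1.24 on day 9 (adjusted p = 2.6e-05) and 1.89 in the parental line (adjusted p = 6.5e-07). Of 8 epithelial markers, CDH1, GRHL2 and KRT19 were under 0.1 CPM in every group and the other 5 were tested. Of those 5, 3 were higher on day 6 than with doxycycline (median 0.89), where 14.0% of all genes were. From day 3 to day 6, 4 were higher (median 0.92), where 21.9% of all genes were. From day 6 to day 9, 4 were lower and 1 higher (median −1.14), where 30.2% of all genes were lower and 28.6% higher. CLDN4, 1 of the 5, was under 0.1 CPM in the day 9 libraries. Against doxycycline, 1 of the 5 was higher and 1 lower on day 9 (3 lower without day 9 replicate 2) and likewise in the parental line. Over all genes, 22.6% were higher and 23.8% lower on day 9, and 21.0% and 18.4% in the parental line. The 8 markers summed to 44.6 to 47.0 CPM on day 3, 46.6 to 63.1 on day 6 and 55.1 to 69.2 on day 9, against 39.1 to 42.2 CPM with doxycycline in the deleted line, and to 40.7 to 45.2 CPM without doxycycline and 43.9 to 44.3 CPM with it in the parental line. The part of NEAT1 and of these markers in the results for SESN3 and DEPTOR was not tested.

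**Figure D4:**
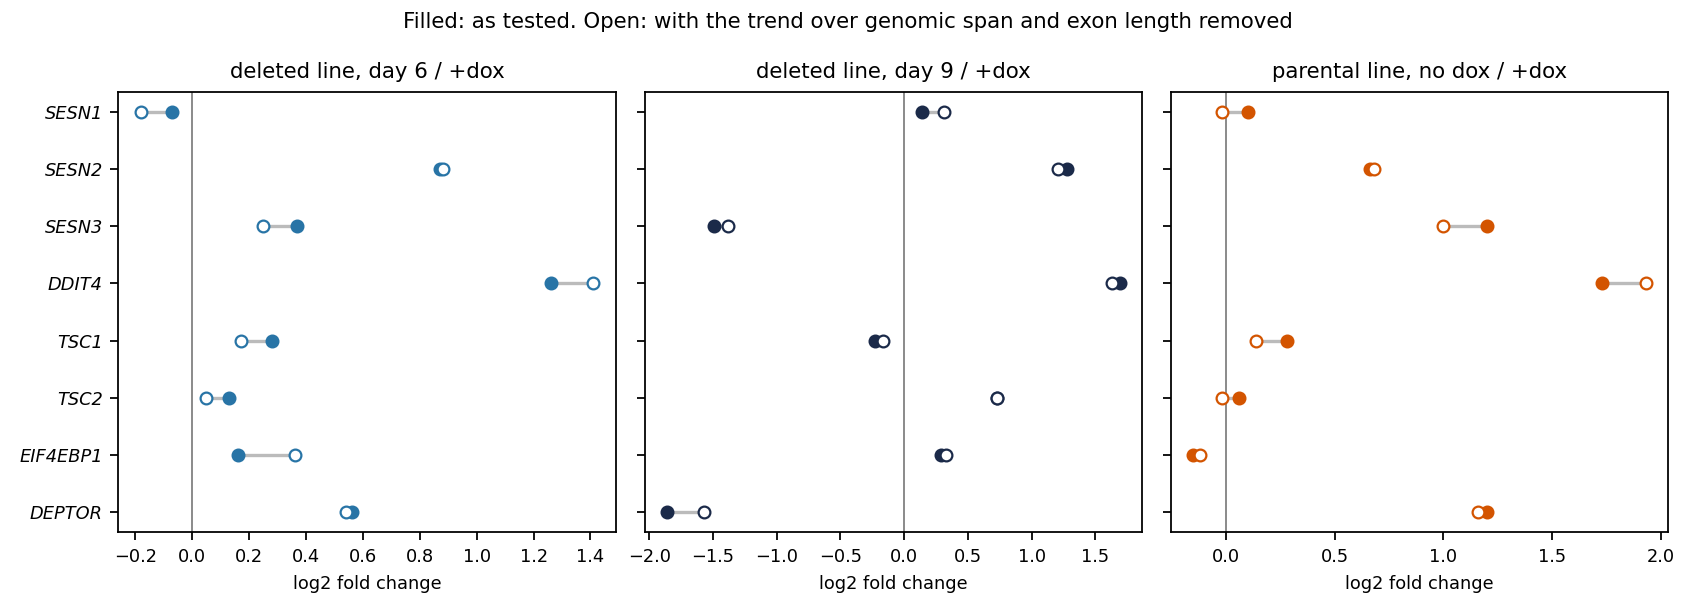
Log2 fold change of each gene as tested (filled) and with the trend over genomic span and exon length removed (open), for day 6, day 9 and the parental line. On day 9 DEPTOR lies at −1.86 as tested and −1.57 with the trend removed; SESN2 lies at 1.28 and 1.21.

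The genes known to act with these brakes were read from lists chosen with earlier results of these data known. Of all genes tested, 6.50% rose and 6.87% fell on day 3, 14.0% each way on day 6, 22.6% and 23.8% on day 9 and 21.0% and 18.4% in the parental line without doxycycline, and list counts near these shares say little about a list. Among 36 ATF4 targets other than the 8 genes, 16 rose and 0 fell on day 3, 34 rose and 0 fell on day 6, and 30 rose and 1 fell on day 9. Parental cells without doxycycline had 28 that rose and 0 that fell. The deleted line with doxycycline had 25 lower and 1 higher than the parental line with it, where 9.97% of all genes were lower and 9.32% higher. Their medians were 0.23, 0.63, 0.62, 0.52 and −0.40, against all-gene medians of −0.002, 0.01, −0.01, 0.028 and 0.012. Where 0 fell, 0 fell at an unadjusted p under 0.05 and 0 by DESeq2. The day 3 count of 16 was 9 without day 3 replicate 2. Among them were the amino acid transporter SLC7A5 (0.52 on day 3 and 1.04 on day 9, edgeR adjusted p = 0.00011 and 1.1e-09) and GDF15, a secreted stress hormone (3.88 on day 6, adjusted p = 4.5e-07). ATF4 RNA itself gave 0.25, 0.20 and 0.17 on days 3, 6 and 9 and 0.17 in the parental line. All 4 were called, and day 3 held in each of 18 refits without 1 library (edgeR adjusted p = 0.0091). Day 6 no longer passed when day 6 replicate 2 (0.16) or doxycycline replicate 3 (0.20) was left out, nor day 9 without day 9 replicate 3 (0.12) or doxycycline replicate 1, 2 or 3 (0.17, 0.17 and 0.16). The parental call was lost without no-doxycycline replicate 3 (0.11), doxycycline replicate 2 (0.14) or 3 (0.17) or deleted-line day 6 replicate 1 (0.14). Between the lines, both given doxycycline, ATF4 RNA gave −0.49 (deleted over parental), and −0.52 to −0.46 in refits without 1 library. DDIT3 (CHOP), a stress factor downstream of ATF4, gave 0.09 on day 3 (edgeR adjusted p = 0.67), 1.43 on day 6 (adjusted p = 4.6e-07), 1.01 on day 9 (adjusted p = 2.5e-06) and 1.22 in the parental line (adjusted p = 8.2e-07).

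Of 16 FOXO targets, 0 rose and 5 fell on day 3, 7 rose and 1 fell on day 6, and 0 rose and 11 fell on day 9. In the parental line without doxycycline 8 rose and 2 fell. Over all genes the shares that fell were 6.87% on day 3 and 23.8% on day 9, and those that rose 14.0% on day 6 and 21.0% in the parental line. The list's medians were −0.23, 0.24, −0.50 and 0.21, against −0.002, 0.01, −0.01 and 0.028 over all genes. Where 0 rose, 0 rose at an unadjusted p under 0.05 and 0 by DESeq2. The day 3 count of 5 was 1 without doxycycline replicate 1 or 2 or day 3 replicate 2, 2 without day 3 replicate 3 and 3 without day 3 replicate 1. The day 6 count of 7 was 3 without doxycycline replicate 3 and 4 without day 6 replicate 2. The repressor BCL6 gave 0.67 on day 6, −1.65 on day 9 and 1.17 in the parental line (edgeR adjusted p = 0.0016, 6.8e-08 and 6e-06), and the PI3-kinase inhibitor PIK3IP1 gave −1.37 on day 3, −1.70 on day 9 and 1.64 in the parental line (adjusted p = 0.002, 2.4e-05 and 4e-05). FOXO3 RNA gave −0.09, 0.43, −0.37 and 0.24 on days 3, 6 and 9 and in the parental line (edgeR adjusted p = 0.5, 0.00056, 0.00078 and 0.021). The last 2 lost their calls with the length trend removed (−0.16 and 0.07), and the parental one without any of the parental libraries but no-doxycycline replicate 3 (0.23 to 0.25). FOXO1 gave 0.01, 0.06, −0.26 and 0.06 in the same order, and the day 9 value was −0.08 with that trend removed.

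Of 19 tested HIF targets, 1 rose and 6 fell on day 3, 4 rose and 3 fell on day 6, 3 rose and 8 fell on day 9, while parental cells without doxycycline had 13 that rose and 3 that fell. Of all genes 6.87% fell on day 3 and 21.0% rose in the parental line. The day 6 counts were near the 14.0% of all genes called in each direction. On day 9, the 3 of 19 that rose were under the share of 22.6%, and the 8 of 19 that fell were over the share of 23.8%. The list's medians were −0.10, 0.09, −0.18 and 0.58, against −0.002, 0.01, −0.01 and 0.028 over all genes. The collagen prolyl hydroxylases P4HA1 (0.96, edgeR adjusted p = 3.1e-07) and P4HA2 (0.82, adjusted p = 2.4e-07) were among those that rose there. The day 6 count of 3 that fell was 1 without day 6 replicate 3. HIF1A RNA gave 0.17, 0.08, 0.17 and −0.07 on days 3, 6 and 9 and in the parental line, and its call on day 9 (edgeR adjusted p = 0.039) was lost in 7 of 18 refits without 1 library, lowest without day 9 replicate 3 (0.09).

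**Figure D5:**
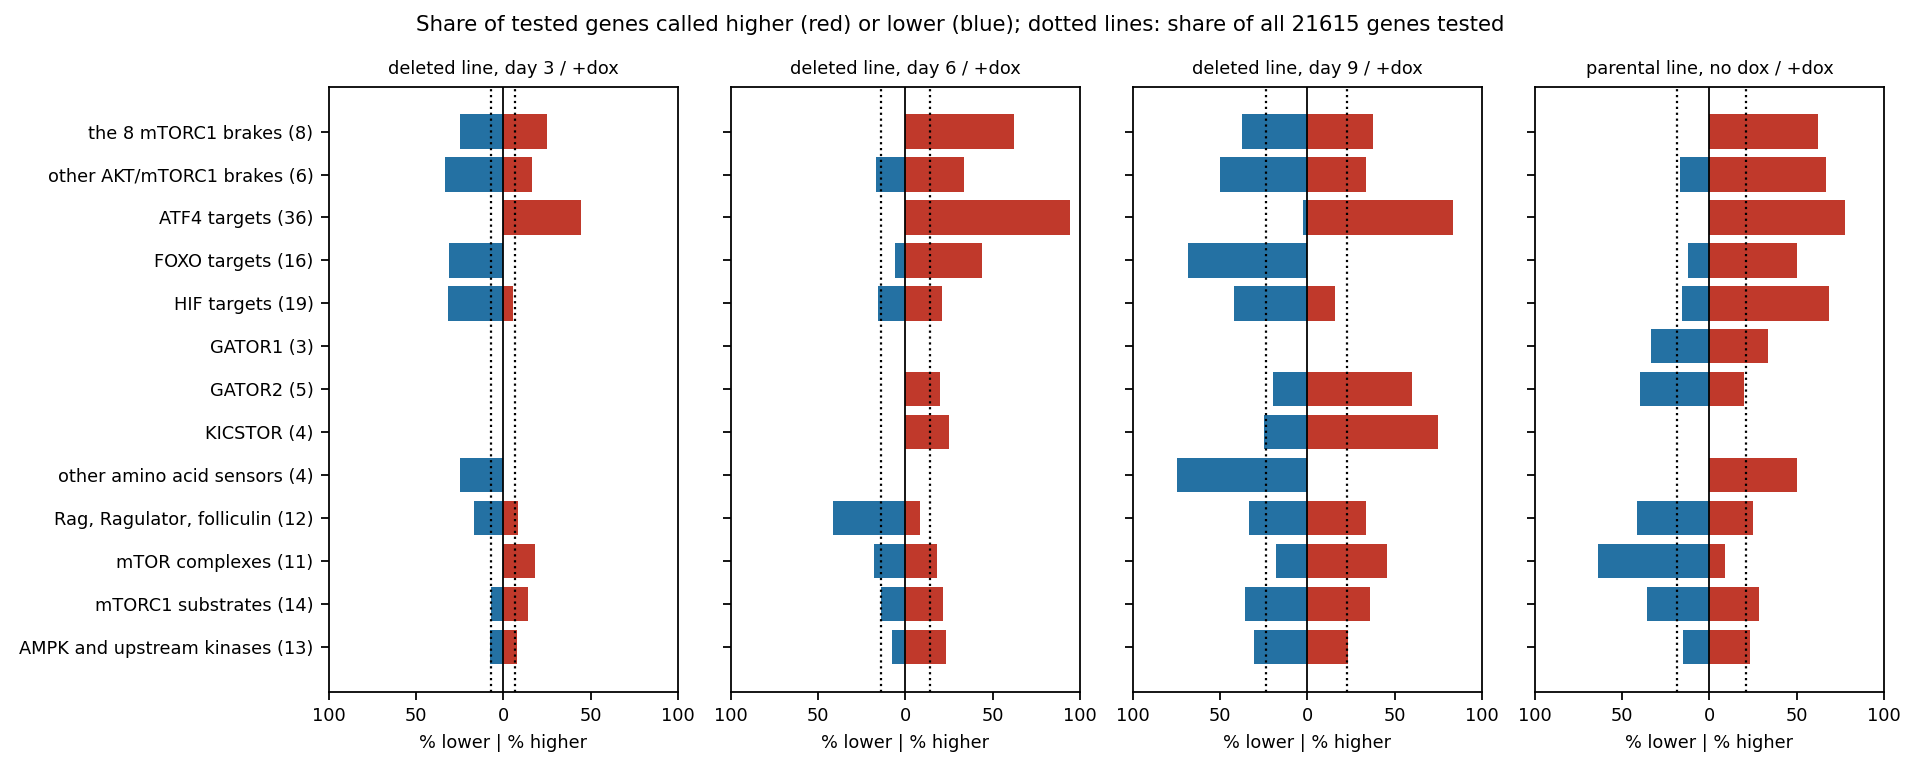
Percent of tested genes of each list called higher (right, red) or lower (left, blue), with the number tested in brackets and dotted lines at the share of all 21615 genes. ATF4 targets lie mostly to the right in all 4 panels, and FOXO targets to the left on day 9 (11 of 16 lower, 0 higher).

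Upstream of the Rag GTPases, GATOR2, which sestrins inhibit, had 3 of 5 genes higher and 1 lower on day 9, with WDR24 at 0.48 (edgeR adjusted p = 4.1e-06) and WDR59 at −0.33 (adjusted p = 0.00026), where 22.6% of all genes were higher and 23.8% lower. In the parental line WDR24 was at −0.30 (edgeR adjusted p = 0.00079). GATOR1, which switches off the Rag GTPases, had 0 of 3 genes called on days 3, 6 and 9 by edgeR, but 2 were higher on day 9 at an unadjusted p under 0.05 and by DESeq2. In the parental line its subunit NPRL2 was higher (0.36, edgeR adjusted p = 0.0015) and NPRL3 lower (−0.21, adjusted p = 0.029). The NPRL3 call was lost with library size as the only scaling (−0.17) and without no-doxycycline replicate 1 (−0.18) or any parental doxycycline library (−0.19 to −0.23). KICSTOR, which anchors GATOR1 to lysosomes, had 3 of 4 genes higher and 1 lower on day 9. KPTN (0.66) and ITFG2 (0.54) were among those higher, and KICS2 (−0.70) was lower. Of 4 other amino acid sensors, the arginine sensors CASTOR1 (−0.66, edgeR adjusted p = 4.2e-05) and CASTOR2 (−0.41, adjusted p = 0.0028) and the methionine sensor BMT2 (−0.38, adjusted p = 0.0075) fell on day 9. BMT2 lost that call without day 9 replicate 1 (−0.28). Of TBC1D7, RHEB and its relative RHEBL1, 0 were called on days 3, 6 and 9 by edgeR and 0 by DESeq2, with 1 at an unadjusted p under 0.05 on day 6, and RHEBL1 rose in the parental line (0.97, edgeR adjusted p = 0.00076). Of 12 Rag, Ragulator and folliculin genes, 1 rose and 5 fell on day 6, among them LAMTOR1 and LAMTOR2 (−0.52 each), where 14.0% of all genes were called in each direction. On day 9, 4 rose and 4 fell, with FLCN, the folliculin gene, at 0.94 (edgeR adjusted p = 5.5e-07).

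Of 11 genes of the mTOR complexes and their assembly factors, 5 rose and 2 fell on day 9, where without day 9 replicate 3 the first count was 3 and without day 9 replicate 1 or 2 or any doxycycline replicate the second was 1. In the parental line without doxycycline 1 rose and 7 fell. The shares over all genes were 22.6% higher and 23.8% lower on day 9 and 21.0% and 18.4% in the parental line, against which the counts of the lists that follow are to be read too. The kinase MTOR gave 0.30 on day 3 (edgeR adjusted p = 0.005) and 0.51 on day 9 (adjusted p = 3e-06), and its chaperone TELO2 gave 0.77 on day 9 (adjusted p = 8.7e-07) and −0.77 in the parental line (adjusted p = 2.5e-06). Of 14 tested mTORC1 substrates and translation factors, 5 rose and 5 fell on day 9. The first count was 2 without day 9 replicate 1 or 2, and 3 without day 9 replicate 3 or any doxycycline replicate. PDCD4, an inhibitor of the helicase eIF4A, was at −0.85 and the scaffold EIF4G1 at 0.67 there (edgeR adjusted p = 8.9e-08 and 6.9e-07). In the parental line PDCD4 was at 0.75 and EIF4G1 at −0.80 (edgeR adjusted p = 1.1e-06 and 3.4e-07). Of 13 genes of AMPK and the kinases above the TSC complex, 3 rose and 4 fell on day 9, and 3 rose and 2 fell in the parental line, all near the shares over all genes. The second of those parental counts was 1 with library size alone and without parental doxycycline replicate 1 or 2 or no-doxycycline replicate 3, and 4 without no-doxycycline replicate 2. Of 6 other stress-induced brakes on AKT or mTORC1, 2 rose and 3 fell on day 9 and 4 rose and 1 fell in the parental line. The DDIT4 relative DDIT4L gave −0.51 on day 9 (edgeR adjusted p = 0.00015), where the AKT-binding pseudokinase TRIB3 gave 1.37 (adjusted p = 2.6e-09).

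Among 14597 genes with a mean of at least 1 CPM, the nearest in pattern were found by the root mean square difference of centred log2 CPM (pseudocount 0.5) over the 6 group means. The nearest to SESN2 were SLC1A4, a neutral amino acid transporter (0.055), IFI27 and COCH, and the nearest to DDIT4 were CHAC1, a glutathione-degrading ATF4 target (0.303), LOC124901277 and NUPR1. CHAC1 gave 0.66, 1.41 and 2.10 on days 3, 6 and 9 and 1.92 in the parental line. The nearest to SESN3 were RNASE4 (0.121), ATP8B3 and BTN3A3, and to DEPTOR CRYM (0.10), PADI2 and KCNN3. CRYM gave −0.95, 0.53 and −1.64 on days 3, 6 and 9 and 1.48 in the parental line. TSC1 was nearest to TGFBR2 (0.028), TBL1X and SLC35F5, TSC2 to HMGN2P15 (0.087), PLEKHG4 and SOCS2-AS1, EIF4EBP1 to TOLLIP (0.030), GAK and PTHLH, and SESN1 to LPAR3 (0.066), CNIH4 and ITGA1. Between the 8 genes the nearest pair was SESN3 and DEPTOR (0.22), and the farthest was TSC2 and DEPTOR (1.20).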

How the data were processed

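The authors deposited raw read counts per gene, whole numbers with no normalization, from paired-end RNA-seq, per the file headers made with featureCounts. Per the submitters' processing notes, the tools were featureCounts of Subread, HISAT2, SAMtools, DESeq2 and cutadapt 2.3, on GRCh38. Column names carry RF, the HISAT2 option for a reverse-stranded library, but the sources used here give neither the strand setting of the counting nor an annotation release. In 16 rows a broken line was rejoined, and 6 libraries held in 2 tables were identical and were used once. The 18 libraries, 3 in each of 6 groups, held 66850705 to 111123481 counts. Counts were tested in R 4.3.3 with edgeR 4.0.16 (quasi-likelihood test, all libraries in 1 model with a mean per group, low-count filter by group, TMM scaling, Benjamini-Hochberg adjustment over 21615 genes), with a common coefficient of variation of 0.12. DESeq2 1.42.0 and the other settings are given in the closing section. The trend setting removed a spline with 4 degrees of freedom over genomic span and exon length from each library.

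The 8 genes and all other lists were chosen with earlier results of these data known. Named were the 8 genes, at most 4 called genes of each list with the lowest p, the 3 genes nearest in pattern to each of the 8, a set of regulators and SARS2, some of which are not reported here; NEAT1, the motifs and the pseudocount of 0.5 CPM were chosen after the values were seen. Levels between genes were compared per kilobase of exon. The edgeR model was tested on simulated counts with known changes for the day 6 comparison; the alternative settings were not. Changes smaller than 2-fold were recovered too rarely to meet the criterion first set, which was then limited to 2-fold changes, so a smaller difference that was not called may still exist.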

Additional observations from a re-analysis of the deposited data

Results flagged for a closer look

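Each value here is the deleted line's log2 fold change without doxycycline minus the parental line's, singled out because an interaction term in edgeR passed an adjusted p of 0.05, so the difference between the lines was itself tested. On day 3 it was −1.74 for SESN3, −0.98 for DDIT4 and −2.29 for DEPTOR. On day 6 it was −0.83 for SESN3. On day 9 it was −2.69 for SESN3, −3.06 for DEPTOR, −0.51 for TSC1, 0.61 for SESN2 and 0.66 for TSC2. SESN3 and DEPTOR fell on day 9 in the deleted line (−1.49 and −1.86) and rose in the parental line without doxycycline (1.20 and 1.20). The parental time without doxycycline is not given, so line and duration cannot be told apart, and the 3 days share the parental and doxycycline libraries.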

How the results depend on the processing

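Deviations of same-numbered libraries correlated at −0.077 to 0.07 over 45 pairs. These values show no strong signal shared by replicate number, but cannot show whether libraries were cultured or prepared together. With the replicate number as a block, 2674 instead of 2889 genes were called on day 3, 5834 instead of 6070 on day 6 and 9888 instead of 10027 on day 9. Among the 8 genes the block ended only the SESN1 call from day 6 to day 9 (0.21). Without division by exon length, the SESN2 share differed by 12.1 points on day 3, 35.2 on day 9 and −3.43 in the parental line. With only the compared groups in the fit, 8 of the 8 genes differed between the lines with doxycycline. That setting also raised the calls over all genes in this comparison, to 7336 from 4171 (19.3% of those tested in the main fit). The number of genes tested under that setting is not given here, so its share cannot be set beside the 8. The difference between lines on day 6 was called for 1 of the 8 in the main fit, where 12.6% of all genes were. It was called for 3 with no low-count filter and for 2 by DESeq2, and the shares over all genes under those settings are not given here. With 1 library left out, 2 to 6 of the 8 were called on day 6, where 3834 to 7163 of all genes were. In the difference between lines on day 6, 1 to 3 of the 8 were called, where 1625 to 4002 of all genes were. The parental SESN2 share differed by −0.759 to 0.849 points.

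Signs that turned belonged to values that were not called. With library size alone, SESN1 was at 0.00 on day 6, with differences between lines of −0.03 on day 3 and −0.06 on day 9, and TSC2 at 0.00 from day 3 to day 6. With the length trend removed, with or without the replicate block, EIF4EBP1 was at −0.03 from day 6 to day 9, SESN1 and TSC2 at −0.02 each in the parental line, and FOXO1 at −0.01, −0.02 and −0.20 on days 3 and 6 and in the parental line. The TSC1 difference between lines on day 6 was 0.01 with DESeq2, its size factors or the compared groups only, 0.02 with library size alone and 0.04 with the trend removed.

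With 1 library left out, the values that turned were SESN1 on day 6 (−0.15 to 0.03), TSC2 from day 3 to day 6 (−0.14 to 0.02) and in the parental line (−0.01 to 0.11), EIF4EBP1 in the parental line (−0.34 to 0.09), FOXO1 on day 3 (−0.03 to 0.04) and in the parental line (−0.00 to 0.11) and SARS2 on day 6 (−0.01 to 0.06). Differences between lines that turned were SESN1 on day 3 (−0.06 to 0.10) and day 9 (−0.02 to 0.13), TSC1 and TSC2 on day 6 (−0.08 to 0.10 and −0.00 to 0.16) and DDIT4 on day 9 (−0.26 to 0.14). The causes were not tested.

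Counts over all genes depended on the libraries: 6536 were called on day 3 with the compared groups only and 1088 and 1328 without day 3 replicates 3 and 2 and 1125 and 1426 without doxycycline replicates 1 and 2, against 2889; 3834 on day 6 without doxycycline replicate 3, against 6070; 1625 in the difference between lines on day 6 without day 6 replicate 3, 1645 and 1729 without parental doxycycline replicates 3 and 2 and 1725 without deleted-line doxycycline replicate 2, against 2729; and 7336 between lines with the compared groups only and 2593 and 2627 without deleted-line doxycycline replicates 1 and 2 and 2657 without parental doxycycline replicate 3, against 4171. Library size alone shifted the median of all genes by −0.127 from day 6 to day 9, and made 64.3% of day 6 calls higher instead of 50% and 38.6% instead of 48.7% from day 6 to day 9.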
